A study of Homo sapiens with 6 samples.

Results

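The chitinase family genes CHI3L2, CHI3L1, CHIT1, CHID1 and CTBS were described in a human B cell lymphoma line after knockdown of the PR domain gene PRDM11. They were taken by gene name from the deposited comparison, where each had 1 row, so they make up 5 of 34675 genes. CHI3L2 was chosen by its deposited means in the 2 conditions, which differed strongly, and the others were added as its relatives. The values of CHI3L2 are therefore given as a description, without a test.

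U2932 is an established human cell line of diffuse large B cell lymphoma origin. Cells were infected either with shPRDM11, a single hairpin clone against PRDM11 (3 samples), or with ShScramble, a scrambled hairpin in pLKO-puro (3 samples), and all were selected with puromycin for 3 days. The deposited table names its groups only A and B, and no label says which is the knockdown, so ratios and differences below set A against B. One cell line and one hairpin were used. The labels do not say that samples came from different cultures, hence p-values reflect no more than the scatter among these samples, possibly technical.

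Chitinases cut chitin, a polymer of N-acetylglucosamine that fungi and arthropods make and human cells do not. CHIT1, or chitotriosidase, is an active chitinase secreted mainly by macrophages. CHI3L1 and CHI3L2 keep the fold of the enzyme but lack its catalytic activity and act as secreted lectins, and CHI3L2 was first described as a product of cartilage cells. CHID1 is a chitinase-domain protein that binds the scavenger receptor stabilin-1. CTBS is the lysosomal chitobiase, which removes the reducing-end N-acetylglucosamine when N-linked glycans are broken down.

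The sequences upstream of 3 secreted members are shown first. CHI3L2 was chosen for its difference between the conditions, the difference of CHIT1 did not pass the test, and CHI3L1 had almost no reads. A part of these sequences in any difference was not tested. Each run is the 250 bases before a RefSeq start site in build GRCh38.p14, written 5′ to 3′ on the gene's strand, and capitals mark motif matches.
CHI3L2, plus strand, chr1:111227409-111227658: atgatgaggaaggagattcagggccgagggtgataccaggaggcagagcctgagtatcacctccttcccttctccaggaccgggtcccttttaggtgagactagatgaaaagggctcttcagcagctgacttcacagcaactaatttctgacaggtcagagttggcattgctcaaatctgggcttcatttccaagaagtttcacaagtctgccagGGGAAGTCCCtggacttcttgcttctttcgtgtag
CHI3L1, minus strand, chr1:203186705-203186954: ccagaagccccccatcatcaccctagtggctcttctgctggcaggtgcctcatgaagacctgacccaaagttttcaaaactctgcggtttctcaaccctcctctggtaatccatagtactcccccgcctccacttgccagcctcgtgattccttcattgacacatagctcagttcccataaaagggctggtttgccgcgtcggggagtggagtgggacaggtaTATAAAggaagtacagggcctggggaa
CHIT1, minus strand, chr1:203229674-203229923: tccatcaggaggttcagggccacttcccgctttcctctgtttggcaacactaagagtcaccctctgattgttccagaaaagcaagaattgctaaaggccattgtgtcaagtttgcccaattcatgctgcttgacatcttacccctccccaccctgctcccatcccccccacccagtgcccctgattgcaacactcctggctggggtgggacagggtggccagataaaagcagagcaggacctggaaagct

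In these windows CHI3L2 held 1 stretch that matches the NF-kB motif on both strands, 35 to 26 bases before the start site, where CHI3L1 and CHIT1 had no match. RefSeq lists a second start for CHI3L2 further downstream, and the upstream one is shown. CHI3L1 held the TATA box letters TATAAA 27 to 22 bases before its start. These exact letters were absent from the windows of CHI3L2 and CHIT1, and other forms of a TATA box were not searched. The AP-1 motif TGANTCA, the EGR motif GCGNGGGCG and the E-box CACGTG, searched like the other motifs on both strands, matched none of the 5 members. All 5 motifs were chosen after the sequences and the values were seen. Of 35116 RefSeq windows of this length, 9.96% held the NF-kB motif, 10.7% TATAAA, 6.57% the AP-1 motif, 8.41% the EGR motif and 6.34% the E-box, so a match is common and describes the letters only. The CTBS window had a GC content of 72.8% and 26 CpG dinucleotides, where the median of all windows was 58.0% and 11, against 50.4% and 3 for CHI3L2, 54.4% and 1 for CHIT1, 54.0% and 6 for CHI3L1 and 60.4% and 5 for CHID1.

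The deposited means are normalised reads, that is, read counts divided by a size factor of each library. Whole reads of the 3 libraries of each condition were recovered from the digits of the means, with size factors of 1.21, 1.03 and 0.768 in condition A and 1.09, 1.05 and 0.951 in condition B, and the library numbers follow these factors, not the labels' replicate numbers. Recovered reads came to between 18154077 and 28202051 per library over genes with a mean up to 10000, which is less than the full depth. The targeted gene PRDM11 had 268.0, 272.1 and 322.7 normalised reads in the 3 A libraries, against 565.5, 515.9 and 544.9 in the B libraries, so it was lower in all 3 libraries of condition A, with a log2 ratio of -0.91 (adjusted p by DESeq = 1.76e-08 from the authors' deposited table). No condition was assigned to the knockdown, because PRDM11's own level would be the sole basis. Among 6 B cell markers, the authors' deposited table lists means of 84146 and 71390 for MS4A1, 53480 and 39597 for CD79A and 35652 and 35450 for PAX5, so these were high in both conditions. Of the 6 markers, 4 had a log2 ratio above 0 and 2 below. Called were 1 higher and 1 lower in condition A, where 4.97% of all genes with a mean of at least 10 were called. The higher one was CD79B, with a log2 ratio of 0.42 (adjusted p by DESeq = 0.0226 from the authors' deposited table).

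CHI3L2 (ENSG00000064886) lies on the plus strand of chromosome 1, and its 11 coding blocks span 111770352 to 111785841 (hg19). Its libraries held 65.3, 65.3 and 72.9 normalised reads in condition A, from 79, 67 and 56 reads. In condition B they held 201.6, 265.6 and 246.1, from 220, 279 and 234 reads. The 3 libraries of condition A lay close together, those of condition B were all higher, and the conditions did not overlap. The mean was 67.9 ± 4.35 (SD, n = 3) in condition A and 237.8 ± 32.8 (SD, n = 3) in condition B. The authors' deposited table gives CHI3L2 a 3.50-fold higher mean in condition B, which is -1.81 as the log2 of A over B. A limma fit over 16649 genes with recovered reads and a mean of at least 10, on log2(normalised reads + 1), gave -1.79 with a standard error of 0.14. Of the genes in that fit, 31.3% had libraries that did not overlap between the conditions, 16.7% with condition A lower, so separation alone is common here. CHI3L2 was the 1 member of 5 called at a deposited adjusted p under 0.05, against 2.54% of all genes and 1.57% lower in condition A. The limma fit called 8.99% of the genes it held. Nothing is read from that count, because CHI3L2 was chosen for this difference. Fewer cells that express a gene and less of its RNA per cell cannot be told apart in bulk samples.

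CHI3L1 (ENSG00000133048), the other chitinase-like lectin, was almost without reads. It lay on the minus strand of chromosome 1, with coding intervals from 203148576 to 203155751 in hg19. Library 2 of condition A held 2 reads of CHI3L1, library 2 of condition B held 1, and the other libraries held 0. Both conditions were below a floor of 3 reads over the condition, so no ratio is given.

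CHIT1 (ENSG00000133063, minus strand of chromosome 1, coding intervals 203186020 to 203198764 in hg19), the active macrophage chitinase, was detected in all 6 libraries. Its libraries held 173.7, 169.7 and 164.0 normalised reads in condition A and 145.7, 145.6 and 175.7 in condition B. Library 3 of condition B was the highest of all 6, so the conditions overlapped. The means were 169.1 ± 4.88 (SD, n = 3) and 155.7 ± 17.3 (SD, n = 3), a log2 ratio of 0.12 per the authors' deposited table (adjusted p by DESeq = 1). The limma fit gave a 95% interval of -0.15 to 0.40 for this log2 ratio.

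CHID1 (ENSG00000177830, minus strand of chromosome 11, coding intervals 869861 to 914569 in hg19), the stabilin-1 partner, had the most reads of the 5 genes. Its libraries held 1924, 1881 and 1998 normalised reads in condition A and 1959, 1682 and 1777 in condition B. Library 1 of condition B lay within the range of condition A and the other libraries of condition B lay below it. The means were 1934 ± 58.9 (SD, n = 3) and 1806 ± 141.0 (SD, n = 3), a log2 ratio of 0.10 per the authors' deposited table (adjusted p by DESeq = 1), with a 95% interval of -0.09 to 0.29 in the limma fit.

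CTBS (ENSG00000117151, minus strand of chromosome 1, coding intervals 85020685 to 85040098 in hg19), the lysosomal chitobiase, varied most between libraries of one condition, relative to its mean, among the 4 members with more than a few reads. Its libraries held 399.5, 365.7 and 292.8 normalised reads in condition A and 366.6, 469.3 and 504.9 in condition B. Libraries 2 and 3 of condition B were the highest, and library 1 of condition B lay within the range of condition A. The means were 352.7 ± 54.5 (SD, n = 3) and 446.9 ± 71.8 (SD, n = 3), a log2 ratio of -0.34 that did not pass the threshold per the authors' deposited table (adjusted p by DESeq = 0.77). The limma fit gave a 95% interval of -0.67 to -0.01 before adjustment and an adjusted p of 0.174.

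**Figure D1:**
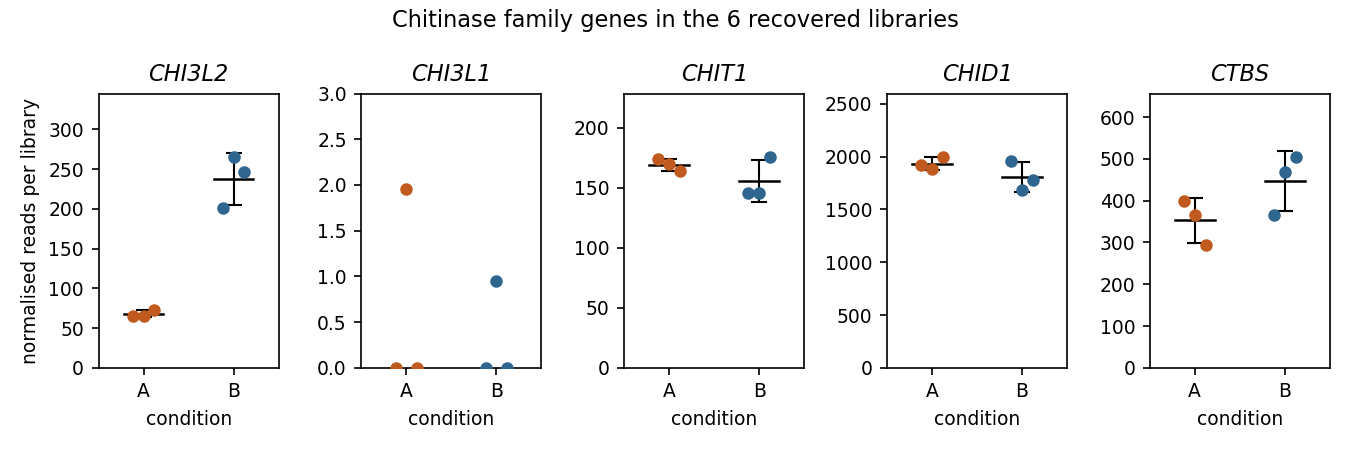
Normalised reads (vertical axes, each from 0) of the 5 chitinase family genes in the recovered libraries of condition A (orange) and condition B (blue); points are libraries, horizontal lines means and bars the SD (n = 3), left out for CHI3L1, which had 2 reads in A and 1 in B. CHI3L2 lies at 65.3 to 72.9 in condition A and 201.6 to 265.6 in condition B, and the other genes overlap.

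Levels of different genes were compared as normalised reads per kilobase of merged exon length (GENCODE 29). On that scale CHID1 was highest in both conditions, at 323.2 for A and 301.8 for B. In condition A the order below it was CTBS at 50.8, CHIT1 at 21.9 and CHI3L2 at 20.6. The libraries of CHIT1 (21.2 to 22.5) and CHI3L2 (19.8 to 22.1) overlapped there. In condition B the order was CHI3L2 at 72.2, CTBS at 64.4 and CHIT1 at 20.1, and the libraries of CHI3L2 (61.2 to 80.6) and CTBS (52.8 to 72.8) overlapped. CHI3L1 was last in both, at 0.19 and 0.093. Merged exon lengths were 3295 bases for CHI3L2, 6939 for CTBS and 7730 for CHIT1, against coding lengths of 1173, 1209 and 1457 bases. The order of these genes therefore depends on the length used. CHI3L2 made up 2.69% of the normalised reads of the 5 genes in condition A and 8.98% in condition B, while their sum was 2524 and 2647.

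**Figure D2:**
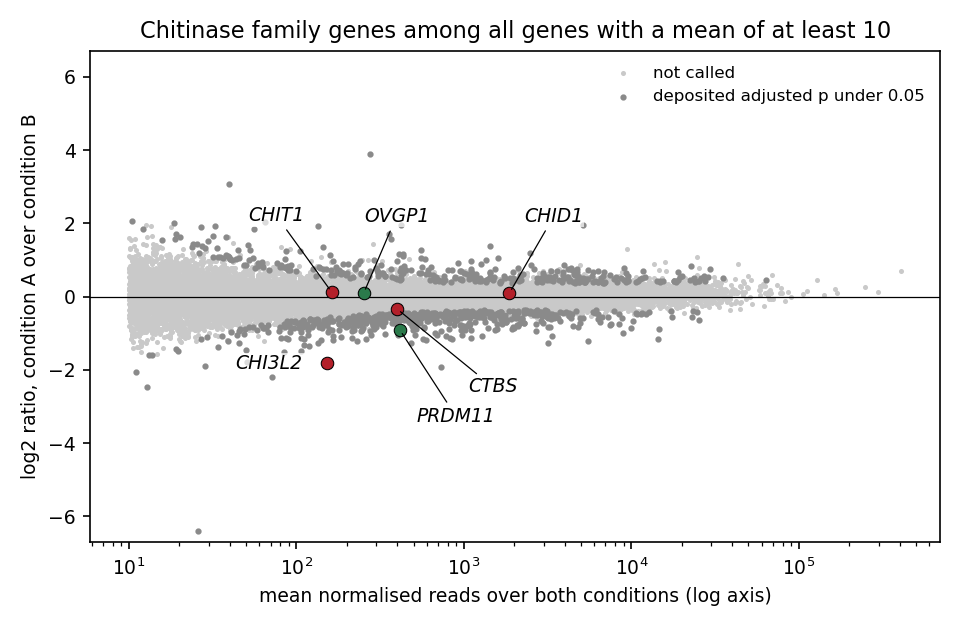
Log2 ratio of condition A over condition B (vertical axis) against the mean normalised reads (horizontal log axis), for every gene whose mean reached 10; dark grey points have a deposited adjusted p under 0.05, red points are family members and green points OVGP1 and PRDM11. CHI3L2 lies at -1.81, CTBS at -0.34, CHIT1 at 0.12 and CHID1 at 0.10.

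The family has further human members with a row in the table. CHIA, the acidic mammalian chitinase, had 1, 2 and 2 reads in the A libraries and 3, 4 and 0 in those of B, too few for a comparison. OVGP1, which encodes an oviduct glycoprotein with an inactive chitinase domain, had 244.8, 259.4 and 278.5 normalised reads in condition A and 233.7, 244.6 and 252.4 in condition B. The conditions overlapped, and the log2 ratio of OVGP1 was 0.10 (adjusted p by DESeq = 1 from the authors' deposited table). Of all 7 family genes CHI3L2, which was chosen for this difference, was the 1 called, against 2.54% of all genes. The median log2 ratio of the 5 family genes with a mean of at least 10 was 0.10, against -0.0033 over 17613 genes with such a mean.

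CHI3L2, CHIA and OVGP1 lie in one stretch of chromosome 1. The coding intervals of CHIA begin 47.6 kb after those of CHI3L2, and those of OVGP1 171.2 kb after them. The nearest gene with a coding interval was DENND2D, a regulator of RAB GTPases, 23.4 kb before CHI3L2 on the opposite strand. It had 1566, 1626 and 1530 normalised reads in the A libraries and 1585, 1543 and 1577 in the B libraries, with a log2 ratio of 0.0053 (adjusted p by DESeq = 1 from the authors' deposited table). Of 14 genes within 500 kb of CHI3L2, 0 were called by DESeq per the authors' deposited table and 0 had an unadjusted DESeq p under 0.05. The limma fit held the 11 with a mean of at least 10 and called 0, with 1 at an unadjusted p under 0.05. These 11 nearby genes had log2 ratios from -0.21 for FAM212B to 0.44 for C1orf162, with a median of -0.11, and 8 were below 0. CEPT1, a phospholipid synthesis enzyme, had -0.14 and DRAM2, a lysosomal membrane protein, -0.13 per the authors' deposited table. WDR77, a subunit of an arginine methyltransferase complex, had -0.08, ATP5F1, an ATP synthase subunit, -0.11, and LRIF1 -0.18 per the authors' deposited table. CD53, a leukocyte tetraspanin, had -0.11, and RAP1A, a small GTPase, -0.17.

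**Figure D3:**
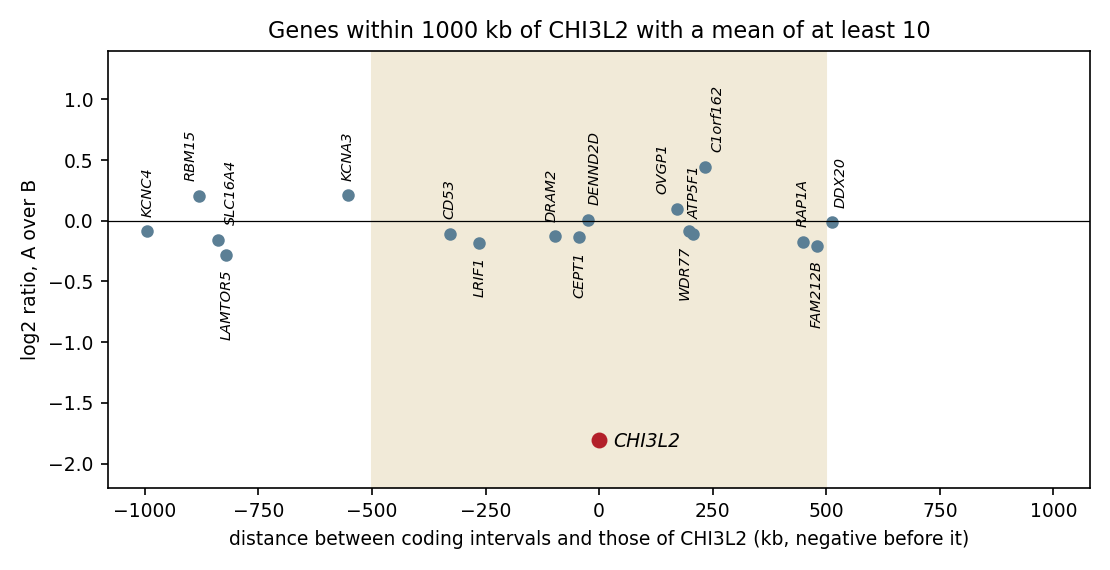
Log2 ratio of condition A over condition B (vertical axis) for genes whose mean reached 10, by the distance in kb between their coding intervals and those of CHI3L2 (horizontal axis); the shaded band marks 500 kb on either side. CHI3L2 lies at -1.81 and the 11 genes in the band between -0.21 and 0.44.

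CHI3L1 and CHIT1 also lie side by side, 30.3 kb apart. Of 15 genes within 500 kb of CHIT1, 2 were called, both higher in condition A per the authors' deposited table. Over all genes, 2.54% were called and 0.966% were called higher in condition A, and 4.97% were called among those with a mean of at least 10. Counts this small were not tested against these shares. The 2 called genes near CHIT1, named after their values were seen, were BTG2, an antiproliferative gene, with a log2 ratio of 0.68 (adjusted p by DESeq = 2.28e-06), and PRELP, a matrix proteoglycan gene, with 1.35 (adjusted p by DESeq = 0.00318). The limma fit also called PRELP, and it did not hold BTG2, whose mean of 19017 lay above the range searched for whole reads. Near CHID1, 2 of 37 genes were called, both higher in condition A per the authors' deposited table. Also named after their values were seen, they were AP2A2, an adaptor subunit of endocytosis 11.5 kb away, with a log2 ratio of 0.43, and the neuronal gene CEND1 with 0.99 (adjusted p by DESeq = 0.0224 and 0.00486). Of 11 genes near CTBS 0 were called by DESeq per the authors' deposited table. The limma fit took in only genes with a mean of at least 10, which 9 of these had, and called 0. In each, 1 had an unadjusted p under 0.05.

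CHI3L2 was next compared with all other genes by profile. Over the 6 libraries, the root mean square difference between log2(normalised reads + 1), each centred on the gene's own mean, was taken for 10000 named genes, pseudogenes excepted, whose mean reached 50. The closest were C6orf223 at 0.18, DOC2A, a calcium sensor of vesicle release, at 0.19, and OPLAH, the oxoprolinase of the glutathione cycle, at 0.21. L3MBTL4, a malignant brain tumour repeat gene, followed at 0.23 and MAT2B, a subunit of methionine adenosyltransferase, at 0.31. The median over all genes was 0.90, and PRDM11 was at 0.46, CTBS at 0.75, CHID1 at 0.96 and CHIT1 at 0.97. C6orf223 had 244.0, 325.7 and 347.5 normalised reads in condition A and 877.1, 1492 and 1096 in condition B. DOC2A had 16.5, 25.4 and 26.0 in condition A and 59.6, 93.3 and 82.0 in condition B. In both genes library 1 of condition A was the lowest of all 6, as it also was in OPLAH and L3MBTL4. In CHI3L2 libraries 1 and 2 of condition A were both at 65.3. OPLAH had 47.1, 63.4 and 57.3 against 142.1, 158.0 and 169.3, and L3MBTL4 had 23.2, 24.4 and 29.9 against 78.8, 139.9 and 133.6. MAT2B was the most abundant of the 5, with 2088, 1826 and 1627 in condition A and 4272, 4539 and 4618 in condition B. In CHI3L2 and in each of the 5 closest genes, library 1 was the lowest of condition B, a pattern that the measure itself selects for. All 5 were lower in condition A, and the measure is set mostly by the difference that chose CHI3L2.

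**Figure D4:**
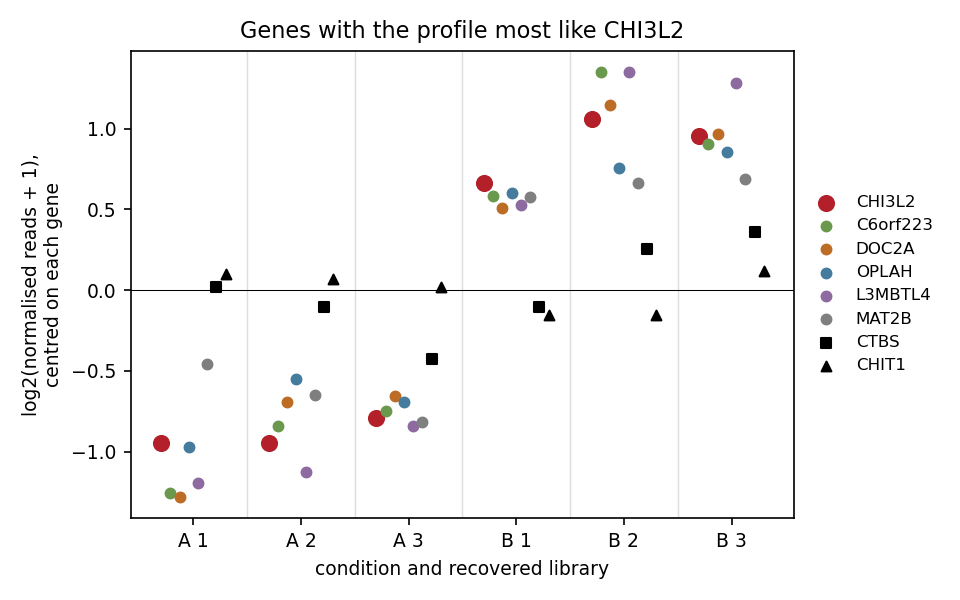
Log2(normalised reads + 1) centred on each gene's mean (vertical axis) in the 6 recovered libraries (horizontal axis) for CHI3L2, the 5 genes closest to it and, in black, CTBS and CHIT1; each point is 1 library. CHI3L2 and the 5 genes are below 0 in all libraries of condition A and above 0 in condition B, while CTBS and CHIT1 stay nearer 0.

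Genes listed under partners of chitinase-like proteins or under chitin recognition were counted next. Of 61 genes in all the fixed lists, marker lists included and members left out, 3 were called lower and 1 higher in condition A per the authors' deposited table, which is 6.56%. With a mean of at least 10, 4 of 45 were called, or 8.89%, where the share over all such genes was 4.97%. CLEC7A, which encodes dectin-1, a receptor for fungal wall glucans, had 830.4, 757.7 and 792.5 normalised reads in condition A and 1109, 1043 and 1134 in condition B. The conditions did not overlap, which held for 31.3% of the genes in the limma fit. CLEC7A was lower in condition A with a log2 ratio of -0.47 (adjusted p by DESeq = 0.015 from the authors' deposited table). In the limma fit its adjusted p was 0.0105, and 0.0733 without library 2 of condition A and 0.0691 without library 3 of condition B. CLEC7A was the 1 called of 4 genes in the fixed list for chitin recognition, although the ligand named above is glucan. TLR2, a Toll-like receptor, and LYSMD3, a LysM domain protein, had log2 ratios of -0.08 and -0.24, and FIBCD1, an acetyl group receptor, had means of 1.19 and 1.37 per the authors' deposited table. The median of the 3 with a mean of at least 10 was -0.24.

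Of 7 partners and receptors of chitinase-like proteins, 0 were called by DESeq per the authors' deposited table, where 2 had an unadjusted p under 0.05. Over all genes DESeq called 2.54%, and 4.97% of those with a mean of at least 10. LGALS3, galectin-3, had 75.3, 93.6 and 88.5 normalised reads in condition A and 121.9, 139.0 and 130.4 in condition B. Its log2 ratio was -0.60 (adjusted p by DESeq = 0.0585 from the authors' deposited table). SDC1, syndecan-1, a heparan sulphate proteoglycan, had 83.5, 89.7 and 111.9 in condition A and 132.0, 135.2 and 138.8 in condition B. Its log2 ratio was -0.51 (adjusted p by DESeq = 0.123 from the authors' deposited table). Neither gene overlapped between the conditions, as was so for 31.3% of the genes in the limma fit. That fit called both, with adjusted p of 0.0266 for LGALS3 and 0.0497 for SDC1, where it called 8.99% of all its genes. Without library 2 of condition A the adjusted p was 0.0679 for LGALS3, and it was 0.122 and 0.106 without libraries 2 and 3 of condition B. For SDC1 it was between 0.0845 and 0.171 without any one library other than library 3 of condition A. CD44, the hyaluronan receptor, had a log2 ratio of 0.13, and TMEM219, a receptor subunit for CHI3L1, -0.0078 per the authors' deposited table. STAB1, the stabilin-1 that binds CHID1, named for that role, had means of 2.50 and 1.93 per the authors' deposited table. Over the 5 genes with a mean of at least 10 the median log2 ratio was -0.0078.

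Around CTBS, 0 of 11 genes of N-glycan breakdown were called by DESeq per the authors' deposited table and 2 had an unadjusted p under 0.05. The median of their log2 ratios was -0.05, and the limma fit called 1. Over all genes DESeq called 2.54%, and 4.97% of those with a mean of at least 10, and the limma fit 8.99% of its genes. Counts as small as those in this paragraph were not tested against these shares. NGLY1, the cytosolic peptide N-glycanase, had a log2 ratio of -0.0020, MAN2B1, lysosomal alpha-mannosidase, -0.24, CTSA, the protective protein cathepsin A, 0.17 and GLB1, beta-galactosidase, 0.05. Of 13 genes of N-acetylglucosamine and hexosamine metabolism, 0 were called by DESeq per the authors' deposited table and 0 by the limma fit among those it tested, with 2 at an unadjusted p under 0.05 in each. The log2 ratios of the 12 with a mean of at least 10 ran from -0.36 to 0.14 with a median of 0.04. OGT, which adds N-acetylglucosamine to proteins, had -0.24 and MGEA5, which removes it, 0.07. UAP1, which makes the activated sugar, had -0.07 and GFPT1, the first enzyme of the pathway, 0.10 per the authors' deposited table.

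Markers of other cell types were low except SOX9. The summed myeloid markers (8 of 10 had a row under their symbol) came to between 87.7 and 92.6 normalised reads in the A libraries. In the B libraries they came to between 69.7 and 103.8. Of the 8, 0 were called by DESeq per the authors' deposited table, against 2.54% of all genes and 4.97% of those with a mean of at least 10. The limma fit held the 3 with a mean of at least 10 and called 0, and 0 had an unadjusted p under 0.05 in either. CD14 had means of 44.4 and 34.6, MSR1 19.7 and 22.4 and CSF1R 18.6 and 16.8, and CD68 3.60 and 5.14 per the authors' deposited table, while CD163 and MPO were below 1 in both conditions. Summed T cell markers, with 4 of 6 found by symbol, were 77.7 to 130.1 in condition A and 97.8 to 136.1 in condition B. Of the 4, 0 were called by DESeq per the authors' deposited table. The limma fit held the 3 with a mean of at least 10 and called 0, and 0 had an unadjusted p under 0.05 in either. CD4 had means of 38.8 and 56.0 and CD8A 43.4 and 46.8 per the authors' deposited table. The limma fit called 8.99% of all its genes, and counts this small were not tested against the shares over all genes. Both sums overlapped between the conditions. They rest on few reads, and a part of other cell types in the difference of CHI3L2 was not tested. Of 6 chondrocyte markers, ACAN, MATN3 and COL9A1 had means under 1 and COL2A1 and COMP under 5. SOX9, a transcription factor of cartilage and other tissues, stood apart with 670.8, 713.9 and 814.7 normalised reads in condition A and 1281, 1262 and 1294 in condition B. SOX9 was lower in condition A without overlap, as were 16.7% of the genes in the limma fit. Its log2 ratio was -0.80 (adjusted p by DESeq = 3.03e-08 from the authors' deposited table). SOX9 moved in the direction of CHI3L2, and its part in the difference of CHI3L2 was not tested.

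**Figure D5:**
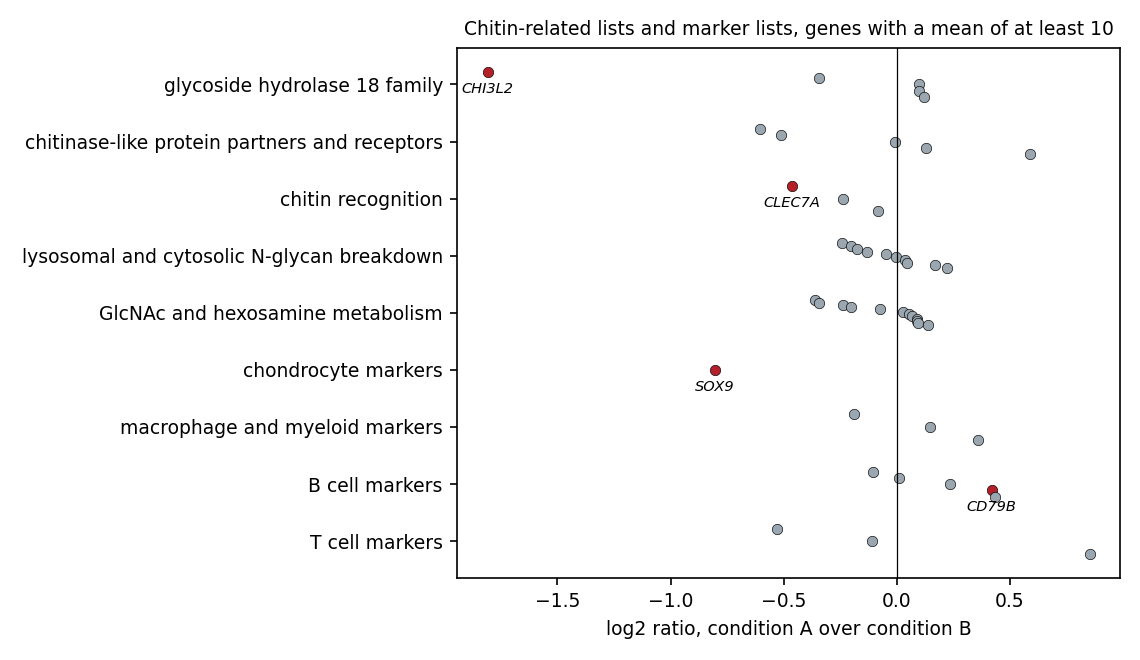
Log2 ratio of condition A over condition B (horizontal axis) for genes whose mean reached 10 in each list (vertical axis), 2 genes not shown; red points, labelled, have a deposited adjusted p under 0.05. CHI3L2 lies at -1.81, SOX9 at -0.80, CLEC7A at -0.47 and CD79B at 0.42.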

How the data were processed

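The submitters' processing notes name STAR, HTSeq 0.5.4p5, DESeq 1.14.0 and the hg19 build. Which tool did what, the gene annotation and any use of strand in counting were not stated there, so reads of overlapping or antisense genes cannot be told apart. The deposited table gives condition means as a signal in normalised reads, a fold ratio of condition B over condition A, its log2 value and a p-value with its Benjamini-Hochberg adjustment, per the file headers and as recomputed. The sign of the log2 value was turned. The deposited track in hg19 gave coding intervals, counted from 1 because 97.6% of lengths then matched GENCODE 29, and its score was not used. Columns of values per sample that were left out numbered 0.

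Each mean is a weighted sum of 3 whole numbers, so reads were recovered by an integer search with weights from genes with 1 read. Means up to 10000 were searched, and above 2500 each library was held between 0.7 and 1.4 times the mean. Of 31051 rows in condition A 31034 had 1 solution, and all 30955 in condition B. The search and the limma step were tested on simulated data. limma 3.58.1 in R 4.3.3 used a mean-variance trend. GENCODE 29 matched 32769 gene identifiers. Listed genes were matched by symbol, which 17231 of 34675 rows carried. A listed gene that was not found may therefore have a row without a symbol.

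The members and lists were chosen with earlier results of these data known. Named besides the members are PRDM11, called genes and the 4 highest of each list, genes within 500 kb of CHI3L2 with a mean of at least 10, and the 5 closest profiles; 2 list genes are counted but not reported singly here. Alternatives were a pseudocount of 1, scaling by library totals, centring on genes with a mean of at least 100, adjustment over genes with a mean of at least 10, limma, a wider window of 1000 kb and each library left out.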

Additional observations from a re-analysis of the deposited data

How the results depend on the processing

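The log2 ratio of CHI3L2 stayed between -1.91 and -1.72 under 10 alternatives: a pseudocount, library totals, centring, limma and each library left out. Those of CHIT1 (0.07 to 0.22), CHID1 (0.05 to 0.16) and CTBS (-0.47 to -0.22) kept their sign under the same alternatives. The number of genes called in the whole table was 881 by the deposited adjusted p and 1496 by limma. With 1 library left out, limma called between 355 and 2155 genes; leaving out library 2 of A gave 374, library 2 of B 355 and library 3 of B 369, and leaving out library 1 of A gave 2155. Genes called in the fixed lists, CHI3L2 among them, numbered 5, and 3 to 8 by limma with 1 library left out. Of genes near CHI3L2, 0 were called under each alternative, the 1000 kb window included. The cause of these changes was not tested. No paired analysis was possible because the recovered libraries carry no replicate number of the labels. Depth limits CHI3L1 and CHIA, with at most 7 reads in a condition.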
